A study of Mus musculus with 12 samples.

Results

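The cadherins, protocadherins, immunoglobulin (Ig) adhesion molecules and leucine-rich repeat (LRR) adhesion molecules were followed over migrating cortical cells of 2 origins. They were chosen by symbol: a cadherin with a number, any protocadherin, contactin, contactin-associated protein, NCAM, nectin, SynCAM (Cadm), DSCAM, Lrrtm, Lrrc4, Slitrk or Flrt gene, and L1cam, Chl1 and Nrcam. This gave 82 of the 11358 genes with a probe set of their own in the table, and each was read by its brightest probe set over the arrays. Of these, 6 matched only by the letters of the symbol (Lrrc40, Lrrc41, Lrrc42, Lrrc45, Lrrc47 and Lrrc49) and belong to none of the adhesion families, which leaves 76. Cells were dissociated from the embryonic mouse cortex, purified by fluorescence-activated cell sorting, and their RNA was hybridised to 12 Affymetrix Mouse430_2 arrays, 3 for each of 4 groups. MGE cells, born in the medial ganglionic eminence, came from Nkx2-1-Cre;R26R-YFP embryos at E18.5 and at E14.5, in which Cre under Nkx2-1 control switches on a yellow reporter for good. CGE cells came from Nkx2-1-Cre;Dlx1-lox-Venus-lox embryos at E18.5 and at E16.5, in which the same Cre removes a Dlx1-driven Venus reporter, so that interneurons from the caudal and lateral eminences keep it. All mice were on a mixed C57BL/6 and CBA background and of both sexes, and embryos were pooled for a collection. The Nkx2-1-Cre label marks every descendant of its progenitors in the cortex, whatever cell type it becomes, while the Venus label needs Dlx1 activity.

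Classical cadherins bind the same cadherin on a neighbouring cell in the presence of calcium and are tied to actin by catenins. Protocadherins have related outer domains but other tails, and the delta group among them acts in cell sorting, migration and axon growth. Ig molecules such as contactins, NCAMs, L1 proteins, nectins and SynCAMs adhere without calcium, while many LRR molecules sit at synapses and bind presynaptic receptors, and interneurons use members of all these families as they migrate, settle and form contacts.

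Values are log2 intensities, so a difference of 1 is a 2-fold change, and the brightness of different probe sets cannot be compared. A gene was tested if a probe set lay above the 40th percentile of its array on at least 3 arrays, which 8791 genes did. The table carries no background call, and where all arrays of a group lay below that percentile (log2 7.10 to 7.17) a difference is given without a fold. Differences were fitted with limma over all 12 arrays and are given ± SE with n = 3 arrays per group, and a gene was called at a Benjamini-Hochberg adjusted p under 0.05 over all genes tested. The lineage markers Lhx6, Sox6 and Maf were higher in MGE cells, and Sp8, Prox1, Nr2f2 and Htr3a were higher in CGE cells, in both lineage comparisons. The 7 measured markers of oligodendrocyte precursors (Pdgfra, Cspg4, Olig1, Olig2, Sox10, Nkx2-2 and Gpr17) were all called higher in MGE cells at E18.5 than in CGE cells at E18.5, with a median difference of 6.13, and all 7 were higher in MGE cells at E18.5 than at E14.5. Their mean log2 intensity was 10.9 to 11.6 in MGE arrays at E18.5, 6.66 to 6.98 in MGE arrays at E14.5, 5.19 to 5.57 in CGE arrays at E18.5 and 4.94 to 5.29 in CGE arrays at E16.5. The 6 markers of radial glia and astrocytes averaged 10 to 10.4 in MGE arrays at E18.5, 7.81 to 8.37 in MGE arrays at E14.5, 8.62 to 9.13 in CGE arrays at E18.5 and 7.77 to 8.24 in CGE arrays at E16.5. The 4 markers of the lateral eminence, whose interneurons the Venus label also keeps, averaged 5.52 to 5.99 in MGE arrays at E18.5, 5.03 to 5.25 in MGE arrays at E14.5, 7.56 to 10.01 in CGE arrays at E18.5 and 6.83 to 8.96 in CGE arrays at E16.5. All 3 microglia markers were higher at E18.5 in both lineages, with medians of 2.63 in MGE cells and 1.49 in CGE cells. Reln, the tested marker of Cajal-Retzius cells, was lower at E18.5 in both, at -2.89 in MGE cells and -3.34 in CGE cells. Calb2, the other measured marker of that list, was too dim to be tested and went the other way. It averaged 6.93 at E18.5 and 5.62 at E14.5 in MGE cells, and 6.36 at E18.5 and 5.96 at E16.5 in CGE cells. Of 7 pan-GABAergic markers, 5 were lower in MGE than in CGE cells at E18.5 (median -0.75), and 6 were lower in MGE cells at E18.5 than at E14.5 (median -0.61). The part of these cells in the adhesion values was not tested, and in sorted pools a larger share of a cell type and more RNA per cell cannot be told apart.

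**Figure D1:**
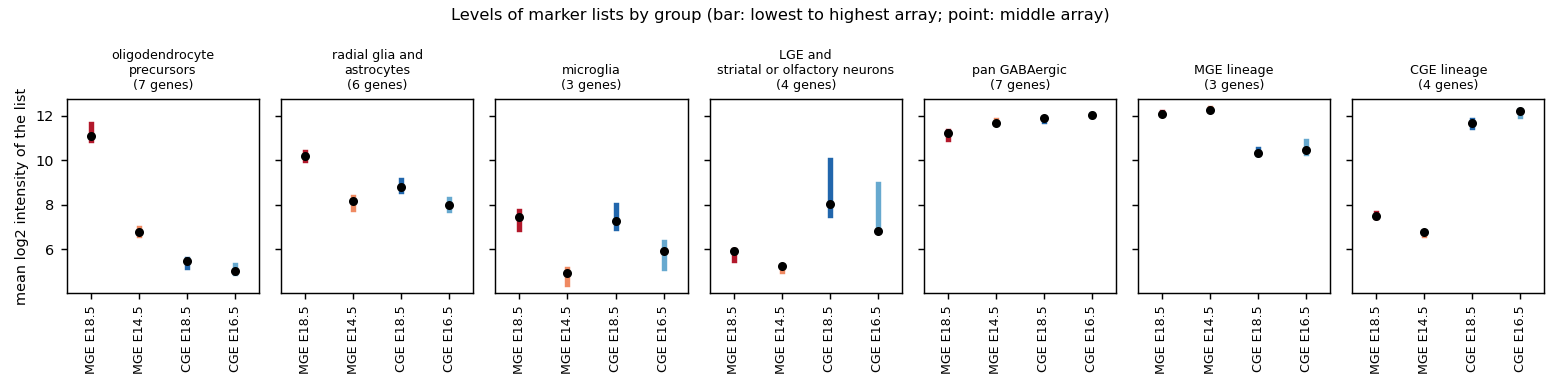
Mean log2 intensity (y axis) of 7 marker lists in the 4 groups (x axis); each bar runs from the lowest to the highest of 3 arrays and the point is the middle array. Oligodendrocyte precursor markers lay at 10.9 to 11.6 in MGE cells at E18.5 and at or below 6.98 on all other arrays, and 1 array of each CGE group stood high for markers of the lateral eminence.

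Of the 82 adhesion genes, 60 were tested and 22 were too dim. Dscam, Lrrtm3, Pcdh11x and Pcdh15 passed the filter through MGE cells at E18.5 alone, so they were bound to differ there, and counts over the 60 describe these arrays without supporting a difference. For these 4 genes the adjusted p below comes from a fit of all 11358 genes without the filter. Slitrk4 and Lrrtm1 passed through MGE arrays alone, and Pcdh18 and Pcdhb15 through CGE arrays alone, so the filter selected them for a lineage difference. Values of adjusted p for Slitrk4, Lrrtm1 and Pcdh18 come from the filtered fit. The late lineage comparison, MGE against CGE cells on the same day (E18.5), called 28 members, 24 higher and 4 lower in MGE cells, where 22.8% of all genes were called, 13% higher and 9.85% lower. The members had a median difference of 0.50, against -0.02 over all genes, and 36 of the 60 had groups that did not overlap, against 36.8% of all genes. The early lineage comparison, which takes MGE cells of E14.5 and CGE cells of E16.5, called 6 members higher and 11 lower, where 4.15% and 5.89% of all genes were called. Here 29 of the 60 did not overlap, against 33% of all genes, and what lineage and what age contributes cannot be told apart.

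Maturation was read within a lineage, as E18.5 minus the earlier collection. In MGE cells 24 members were called, 18 higher and 6 lower at E18.5, where 21.2% of all genes were called, 11.4% higher and 9.77% lower. Here 32 did not overlap, against 47.8% of all genes. In CGE cells 2 were higher and 11 lower at E18.5, where 4.52% and 6.39% of all genes were. For 24 members the groups did not overlap, against 25.5%. The median difference of the members was 0.14 in MGE cells and -0.33 in CGE cells, against -0.06 and -0.07 over all genes. The count in CGE cells is the least stable of these: it was 7 without CGE E18.5 replicate 2, 7 without CGE E16.5 replicate 3 and 5 when only the 6 CGE arrays were fitted. Without the filter, all 82 members could be called, and 29 were higher and 5 lower in the late lineage comparison, where 13.1% and 9.34% of 11358 genes were. In the same fit 8 were higher and 11 lower in the early comparison (3.56% and 5.1% of genes), 24 higher and 5 lower in MGE maturation (12.1% and 8.17%) and 2 higher and 10 lower in CGE maturation (4.07% and 4.9%).

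**Figure D2:**
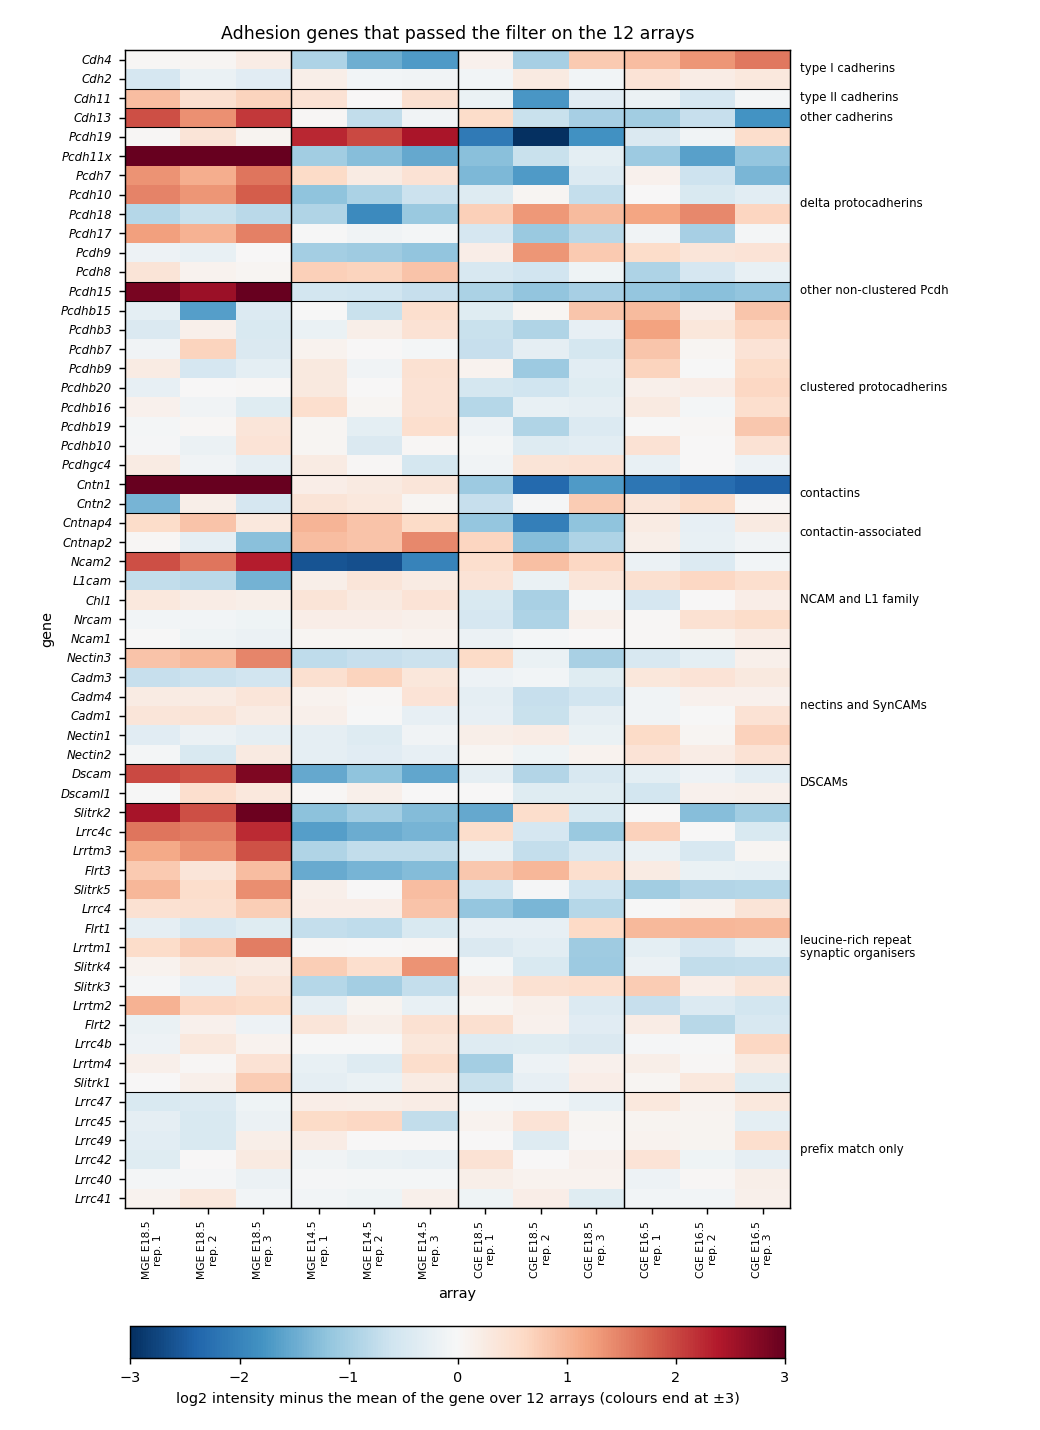
Each row is 1 of the 60 tested genes, grouped by family, and each column 1 of the 12 arrays; colour gives the log2 intensity minus the gene's mean over the arrays, with colours ending at ±3. The 3 MGE arrays at E18.5 stand out in red for Pcdh11x, Pcdh15, Cntn1, Ncam2, Dscam and Slitrk2, and the clustered protocadherins are pale throughout.

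Pcdh19 is an X-linked delta protocadherin that associates with N-cadherin, and it is known for an epilepsy that affects mainly heterozygous females in humans. Pcdh19 had log2 intensities of 8.93, 9.28 and 8.98 in MGE cells at E18.5, 11.15, 10.88 and 11.35 in MGE cells at E14.5, 6.77, 5.66 and 7.08 in CGE cells at E18.5 and 8.46, 8.80 and 9.44 in CGE cells at E16.5. It was higher in MGE than in CGE cells on every array of either lineage comparison, and lower at E18.5 than on the earlier day in both lineages. The difference was 2.23 ± 0.33 in the early comparison (4.69-fold, adjusted p = 0.000985) and 2.56 ± 0.33 in the late comparison (adjusted p = 0.000161). At E18.5 it was lower by a difference of -2.06 ± 0.33 in MGE cells (adjusted p = 0.00103) and -2.40 ± 0.33 in CGE cells (adjusted p = 0.00265). The lineage difference itself changed by 0.33 ± 0.47 between the days (adjusted p = 0.741, 95% confidence interval -0.70 to 1.36), which leaves the size of any change open within that interval. Its 3 probe sets read alike, with early differences of 2.22 to 2.30 and late differences of 2.56 to 2.94.

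Among the other delta protocadherins, 7 of 8 were tested, and 5 were higher and 2 lower in MGE cells in the late comparison, where 13% and 9.85% of all genes were. Pcdh11x had log2 intensities of 10.61, 10.23 and 10.86 in MGE cells at E18.5, 6.19, 5.97 and 5.71 in MGE cells at E14.5, 6.0, 6.57 and 6.95 in CGE cells at E18.5 and 6.15, 5.62 and 6.09 in CGE cells at E16.5. This X-linked delta protocadherin stood more than 3 log2 units above all other arrays in MGE cells at E18.5, while the other 3 groups overlapped. Its late difference was 4.06 ± 0.25 (adjusted p = 5.31e-07) and its difference in MGE maturation 4.60 ± 0.25 (adjusted p = 2.48e-07), while the early difference was 0.01 ± 0.25. Pcdh10 had log2 intensities of 9.54, 9.36 and 9.85 in MGE cells at E18.5, 6.83, 7.08 and 7.40 in MGE cells at E14.5, 7.66, 8.09 and 7.33 in CGE cells at E18.5 and 8.05, 7.58 and 7.72 in CGE cells at E16.5. Pcdh10, whose tail recruits the WAVE actin regulators, was again highest on the MGE arrays at E18.5, by 1.89 ± 0.22 in the late comparison and 2.48 ± 0.22 in MGE maturation. Of its probe sets below the filter, the brightest averaged 6.86 in MGE cells at E18.5, 6.43 at E14.5 and 6.89 in CGE cells at E18.5. The dimmer ones were highest in MGE cells at E18.5. Pcdh17 had log2 intensities of 10.18, 9.99 and 10.47 in MGE cells at E18.5, 8.94, 8.84 and 8.89 in MGE cells at E14.5, 8.46, 7.85 and 8.13 in CGE cells at E18.5 and 8.84, 7.96 and 8.90 in CGE cells at E16.5. Pcdh17, another member of the group that acts on axons and synapses, was 2.07 ± 0.24 in the late comparison and 1.32 ± 0.24 in MGE maturation. Pcdh7 had log2 intensities of 9.07, 8.80 and 9.31 in MGE cells at E18.5, 8.29, 7.96 and 8.15 in MGE cells at E14.5, 6.37, 6.01 and 7.29 in CGE cells at E18.5 and 7.84, 7.10 and 6.35 in CGE cells at E16.5. Pcdh7 differed between lineages at E18.5 by 2.50 ± 0.36 (adjusted p = 0.000396), but the early difference of 1.04 ± 0.36 and the MGE maturation difference of 0.93 ± 0.36 were not called.

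A pair of delta protocadherins ran the other way. Pcdh18 had log2 intensities of 5.34, 5.53 and 5.38 in MGE cells at E18.5, 5.29, 4.29 and 5.08 in MGE cells at E14.5, 6.90, 7.50 and 7.15 in CGE cells at E18.5 and 7.39, 7.64 and 6.83 in CGE cells at E16.5. Every CGE array lay above every MGE array for this gene, whose protein binds the adaptor Dab1. The difference was -2.40 ± 0.27 in the early comparison (adjusted p = 0.000116) and -1.77 ± 0.27 in the late one (adjusted p = 0.00051), and neither maturation called it. Pcdh18 passed the filter through CGE arrays alone, 2 at E16.5 and 1 at E18.5, so the filter itself selected for this difference. Pcdh9 averaged 9.47 ± 0.12 in MGE cells at E18.5, 8.51 ± 0.08 in MGE cells at E14.5, 10.36 ± 0.57 in CGE cells at E18.5 and 10.04 ± 0.09 in CGE cells at E16.5 (SD). It was lower in MGE cells by -1.52 ± 0.22 in the early and -0.89 ± 0.22 in the late comparison, and higher at E18.5 in MGE cells (0.96 ± 0.22, adjusted p = 0.00961). Another Pcdh9 probe set missed the late call (-0.38, adjusted p = 0.173 over all probe sets) and called a change of the lineage difference (1.61, adjusted p = 0.00259). The remaining one passed late (-1.32, adjusted p = 0.00675) and did not call the change (0.47, adjusted p = 0.551). Pcdh8, a protocadherin that N-cadherin pairs with in dendrites, was higher in MGE cells in the early comparison (1.29 ± 0.18, adjusted p = 0.000635). Its late difference of 0.58 ± 0.18 and its MGE maturation difference of -0.56 ± 0.18 were called weakly. The first call was lost without any MGE E18.5 array, MGE E14.5 replicate 1, MGE E14.5 replicate 2, CGE E18.5 replicate 1 or CGE E18.5 replicate 2 (values of 0.48 to 0.64, adjusted p up to 0.131). The second was lost without any MGE E14.5 array, MGE E18.5 replicate 2, MGE E18.5 replicate 3, CGE E16.5 replicate 2 or CGE E18.5 replicate 1 (values of -0.60 to -0.50, adjusted p up to 0.146). The other probe set of Pcdh8 gave 0.95 in the late comparison (adjusted p = 0.00231 over all probe sets) and -0.87 in MGE maturation (adjusted p = 0.00504). The remaining member, Pcdh1, did not pass the filter.

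Pcdh15 had log2 intensities of 7.83, 7.56 and 8.17 in MGE cells at E18.5, 4.44, 4.40 and 4.29 in MGE cells at E14.5, 4.05, 3.80 and 4.01 in CGE cells at E18.5 and 3.85, 3.74 and 3.80 in CGE cells at E16.5. Pcdh15, which forms the tip link of inner ear hair cells together with Cdh23, was at the bottom of the range outside MGE cells at E18.5. The late difference was 3.90 ± 0.14 (adjusted p = 1.4e-08) and the MGE maturation difference 3.48 ± 0.14. Both were set against groups that lay wholly below the filter level. The early difference of 0.58 ± 0.14 (adjusted p = 0.0314, with both groups below the filter level) was lost in the filtered fit when any MGE E14.5 array but replicate 3, or any CGE E16.5 array, was left out, with values of 0.55 to 0.61 and adjusted p up to 0.099. Pcdh20, a protocadherin too dim to be tested, was also highest in MGE cells at E18.5. Pcdh20 had log2 intensities of 7.16, 6.33 and 7.20 in MGE cells at E18.5, 3.98, 3.99 and 4.12 in MGE cells at E14.5, 4.58, 4.38 and 4.93 in CGE cells at E18.5 and 4.0, 3.81 and 4.29 in CGE cells at E16.5.

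The promoter sequences of 4 genes with contrasting patterns, each with 1 listed start, are given to show what lies before their starts. They are Pcdh19 (MGE over CGE in both lineage comparisons), Pcdh15 (high in MGE cells at E18.5), Ncam2 (described below with its family) and Pcdh18 (CGE over MGE). RefSeq (GRCm38.p6) gave 60 windows for 49 of the 82 members, some of which have several starts, and the 250 bases before the start are printed 5′ to 3′ on the strand of the gene. Capitals mark the TATA motif TATAAA and the CCAAT motif on either strand (ATTGG on the other strand), which do not overlap each other.
Pcdh19 (chrX:133688994-133689243, minus strand): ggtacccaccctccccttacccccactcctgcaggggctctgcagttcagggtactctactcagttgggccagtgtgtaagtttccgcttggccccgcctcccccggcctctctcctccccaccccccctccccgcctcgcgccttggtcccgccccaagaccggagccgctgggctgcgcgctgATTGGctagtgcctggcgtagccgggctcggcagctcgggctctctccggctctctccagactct
Pcdh15 (chr10:73821617-73821866, plus strand): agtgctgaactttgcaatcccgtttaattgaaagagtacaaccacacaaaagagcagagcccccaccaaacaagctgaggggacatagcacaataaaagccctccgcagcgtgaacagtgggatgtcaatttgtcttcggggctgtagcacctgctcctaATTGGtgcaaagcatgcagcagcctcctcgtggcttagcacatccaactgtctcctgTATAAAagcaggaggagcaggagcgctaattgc
Ncam2 (chr16:81200447-81200696, plus strand): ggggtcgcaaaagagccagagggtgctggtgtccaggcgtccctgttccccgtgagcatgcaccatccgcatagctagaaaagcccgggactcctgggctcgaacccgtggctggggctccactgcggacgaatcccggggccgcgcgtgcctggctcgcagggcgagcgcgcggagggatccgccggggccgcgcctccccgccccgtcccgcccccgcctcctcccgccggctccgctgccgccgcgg
Pcdh18 (chr3:49757317-49757566, minus strand): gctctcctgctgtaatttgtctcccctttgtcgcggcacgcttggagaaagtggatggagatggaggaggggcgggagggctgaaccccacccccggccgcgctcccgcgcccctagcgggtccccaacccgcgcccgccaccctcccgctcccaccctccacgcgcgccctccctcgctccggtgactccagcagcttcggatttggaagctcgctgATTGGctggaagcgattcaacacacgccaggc
Pcdh15 alone of these held TATAAA, which 12.4% of all 32851 windows and 4 of the 60 windows of members held. Pcdh19, Pcdh15 and Pcdh18 each held 1 CCAAT motif, as did 33.8% of all windows and 20 of the 60 windows of members. G and C made up 69.2% of the Pcdh19 window, 50.4% of the Pcdh15 window, 75.2% of the Ncam2 window and 68.0% of the Pcdh18 window. A match of letters is no measurement of binding, and both motifs were picked after the windows had been read.

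The clustered protocadherins are built from neighbouring genes that neurons express in varied combinations to tell self from non-self. Of 17 measured, 9 were tested, 8 of the beta cluster and Pcdhgc4, and 0 were called by limma in either lineage comparison or in MGE maturation. Of all genes, 10% were called in the early comparison, 22.8% in the late one and 21.2% in MGE maturation. At an unadjusted p under 0.05, 1 of the 9 would pass in the early comparison, 2 in the late one and 0 in MGE maturation. The number was 7 in CGE maturation and 4 in the change of the lineage difference, where none was called after adjustment. The share of all genes at the unadjusted threshold was not counted, so these numbers have no background beside them. In CGE maturation 3 of the 9 were called lower at E18.5, where 6.39% of all genes were. Pcdhb3 had log2 intensities of 6.32, 6.09 and 6.76 in CGE cells at E18.5 and 8.20, 7.34 and 7.63 in CGE cells at E16.5, a difference of -1.34 ± 0.26 (adjusted p = 0.0101). Pcdhb20 had 6.73, 6.68 and 6.90 at E18.5 and 7.42, 7.47 and 7.89 at E16.5 in CGE cells (-0.82 ± 0.16, adjusted p = 0.0093). Neither pair of groups overlapped. Pcdhb7 was -0.92 ± 0.26 (adjusted p = 0.0422), a call that was lost without any MGE E14.5 or CGE E18.5 array, CGE E16.5 replicate 1, CGE E16.5 replicate 3 or MGE E18.5 replicate 1 (values of -1.03 to -0.73, adjusted p up to 0.126). The other tested members of the cluster had CGE maturation differences from -0.84 for Pcdhb9 to 0.35 for Pcdhgc4. Transcripts of near-identical beta genes can cross-hybridise, so these probe sets may share signal.

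**Figure D3:**
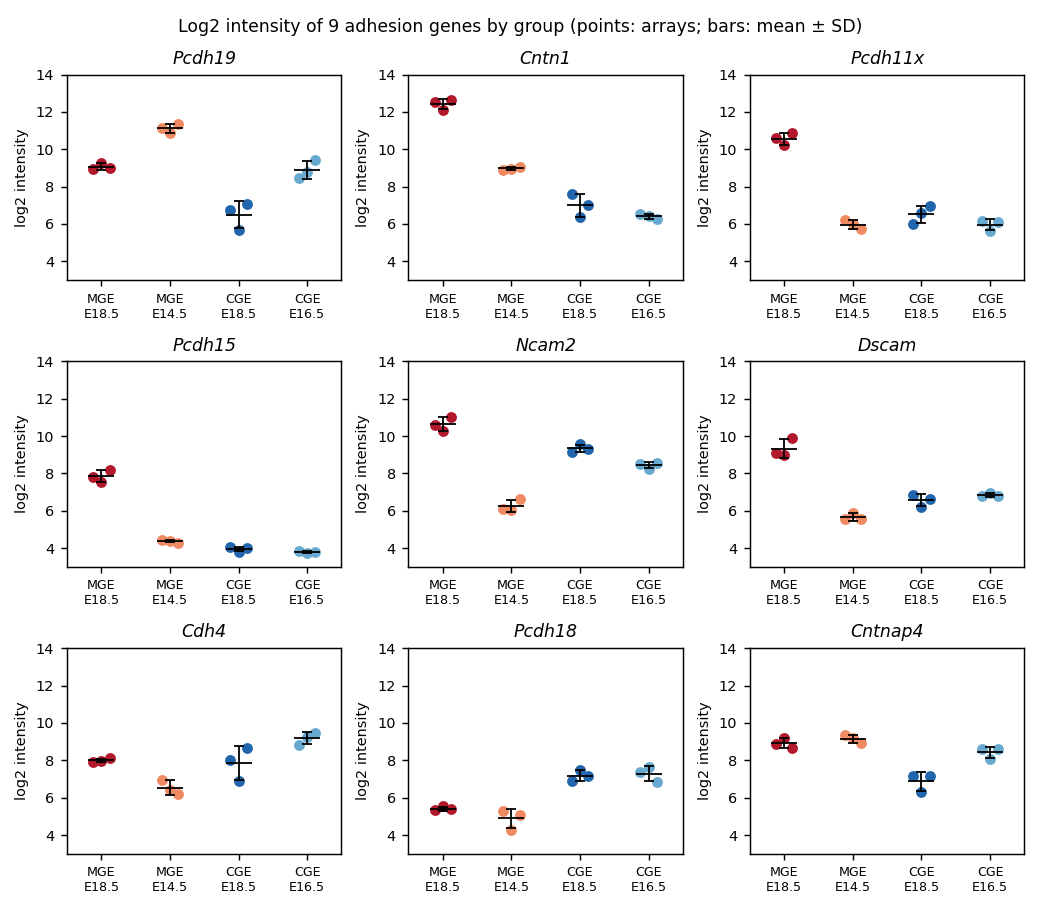
Log2 intensity (y axis) of 9 adhesion genes in the 4 groups (x axis); points are arrays and bars give the mean ± SD of 3 arrays. Pcdh19 is higher in MGE than in CGE cells in both lineage comparisons, Cntn1, Pcdh11x and Pcdh15 are highest in MGE cells at E18.5, and every CGE array lies above every MGE array for Pcdh18.

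Of the classical type I cadherins, N-cadherin (Cdh2), the main cadherin of neural tissue, was called in no comparison, with differences from -0.39 to -0.29 in the lineage and maturation comparisons. A second probe set passed in MGE maturation (-0.40, adjusted p = 0.0376 over all probe sets) and in CGE maturation (-0.42, adjusted p = 0.047). Cdh4 had log2 intensities of 7.92, 7.96 and 8.11 in MGE cells at E18.5, 6.97, 6.43 and 6.19 in MGE cells at E14.5, 8.03, 6.89 and 8.68 in CGE cells at E18.5 and 8.83, 9.22 and 9.47 in CGE cells at E16.5. Cdh4, R-cadherin, which can bind N-cadherin, was lower in MGE cells in the early comparison by -2.64 ± 0.36 (adjusted p = 0.000585), where no array of the groups overlapped, and 0.13 ± 0.36 in the late one. A second probe set gave -3.15 in the early comparison. It was higher at E18.5 in MGE cells by 1.46 ± 0.36 and lower at E18.5 in CGE cells by -1.30 ± 0.36. The MGE maturation call was lost without MGE E14.5 replicate 2, MGE E14.5 replicate 3 or MGE E18.5 replicate 3 (values of 1.29 to 1.42, adjusted p up to 0.0571). The CGE maturation call was lost without any MGE E18.5 array, MGE E14.5 replicate 2, CGE E16.5 replicate 2, CGE E16.5 replicate 3, CGE E18.5 replicate 1 or CGE E18.5 replicate 2 (values of -1.39 to -0.82, adjusted p up to 0.138).

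Cdh11, a type II cadherin, was the only tested member of its 7 measured, and was higher in MGE cells in the late comparison (1.46 ± 0.33, adjusted p = 0.00784). Cdh13 had log2 intensities of 8.96, 8.38 and 9.15 in MGE cells at E18.5, 7.05, 6.27 and 6.93 in MGE cells at E14.5, 7.57, 6.36 and 6.03 in CGE cells at E18.5 and 5.98, 6.34 and 5.23 in CGE cells at E16.5. Cdh13, T-cadherin, is anchored in the membrane by lipid and has no tail inside the cell. It was higher in MGE cells at E18.5 than in CGE cells at E18.5 (2.18 ± 0.40, adjusted p = 0.002) and than in MGE cells at E14.5 (2.08 ± 0.40, adjusted p = 0.00335), with no overlap in either. Cdh10 was too dim to be tested, with 7.24, 6.16 and 7.92 in MGE cells at E18.5, 5.06, 4.18 and 4.97 in MGE cells at E14.5, 6.65, 6.24 and 7.04 in CGE cells at E18.5 and 4.79, 5.73 and 5.86 in CGE cells at E16.5. Its values were high at E18.5 in both lineages, and fitted without the filter it was 2.37 ± 0.43 in MGE maturation and 1.18 ± 0.43 in CGE maturation, of which the first was called (adjusted p = 0.0025).

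Cntn1 had log2 intensities of 12.52, 12.11 and 12.63 in MGE cells at E18.5, 8.90, 8.96 and 9.05 in MGE cells at E14.5, 7.62, 6.35 and 7.0 in CGE cells at E18.5 and 6.53, 6.41 and 6.26 in CGE cells at E16.5. Contactin 1, an Ig protein that pairs with contactin-associated proteins at the junction of axon and myelin, had the largest late difference of all members. It was 5.43 ± 0.25 in the late comparison (43.1-fold, with 1 of 3 CGE arrays above the filter level, adjusted p = 3.49e-08), 2.57 ± 0.25 in the early one (adjusted p = 4.86e-05) and 3.45 ± 0.25 in MGE maturation, with no overlap. CGE maturation did not call it (0.59 ± 0.25, adjusted p = 0.164), and a second probe set gave 5.86 in the late comparison. Cntn6 was not tested, with 6.65, 6.48 and 6.70 in MGE cells at E18.5, 4.07, 4.02 and 4.33 in MGE cells at E14.5, 4.29, 3.89 and 4.15 in CGE cells at E18.5 and 4.09, 4.47 and 4.89 in CGE cells at E16.5. Without the filter the late difference of Cntn6, a contactin of developing synapses, was 2.50 ± 0.19 and that of Cntn4 was 1.60 ± 0.24, and both were called. Cntn2, found on growing axons, was called in no comparison.

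Cntnap4 had log2 intensities of 8.90, 9.20 and 8.65 in MGE cells at E18.5, 9.35, 9.21 and 8.93 in MGE cells at E14.5, 7.17, 6.30 and 7.14 in CGE cells at E18.5 and 8.59, 8.10 and 8.61 in CGE cells at E16.5. Cntnap4, a neurexin-like protein known from GABAergic synapses, was similar on MGE arrays of either day and lower in CGE cells at E18.5. The late difference was 2.05 ± 0.24 (adjusted p = 8.04e-05) and the CGE maturation difference -1.56 ± 0.24 (adjusted p = 0.00406). MGE maturation was -0.24 ± 0.24 and not called. Cntnap2, which gathers potassium channels beside the node of Ranvier, was lower at E18.5 in MGE cells by -1.58 ± 0.44 (adjusted p = 0.0253), at 6.74 ± 0.67 against 8.32 ± 0.31 at E14.5 (SD). This call was lost without any MGE E14.5 array or MGE E18.5 replicate 3 (values of -1.68 to -1.20, adjusted p up to 0.106). Its second probe set was called higher in MGE cells in the early comparison (2.32) where the chosen one was not (1.13 ± 0.44), and the 2 probe sets went in opposite directions in CGE maturation, at -0.47 and 1.11.

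Ncam2 had log2 intensities of 10.60, 10.28 and 11.02 in MGE cells at E18.5, 6.08, 6.04 and 6.65 in MGE cells at E14.5, 9.16, 9.56 and 9.28 in CGE cells at E18.5 and 8.49, 8.25 and 8.58 in CGE cells at E16.5. Ncam2, an NCAM best known from olfactory axons, was lowest on MGE arrays at E14.5 and highest on MGE arrays at E18.5, and no groups overlapped. It was lower in MGE cells in the early comparison (-2.18 ± 0.21, adjusted p = 4.29e-05) and higher in the late one (1.29 ± 0.21, adjusted p = 0.000952). MGE maturation was 4.37 ± 0.21 and CGE maturation 0.90 ± 0.21. The CGE call was lost without CGE E16.5 replicate 2, CGE E16.5 replicate 3 or CGE E18.5 replicate 2 (values of 0.78 to 0.96, adjusted p up to 0.0774). Other Ncam2 probe sets, below the filter, averaged 5.23 and 5.68 in MGE cells at E18.5 and 5.19 and 5.67 in CGE cells at E18.5. They were nearly level there, so the late difference of Ncam2 rests on the brightest probe set. Ncam1, the abundant NCAM that carries polysialic acid, depended on the probe set. The brightest of its 7 was called in no comparison, with a late difference of -0.03 ± 0.10 and an early one of -0.04 ± 0.10. Another gave -1.31 in the late comparison (adjusted p = 0.000544 over all probe sets), -0.74 in MGE maturation (adjusted p = 0.0226) and 1.00 in CGE maturation (adjusted p = 0.0119). With the mean of its probe sets the late difference was -0.43 (adjusted p = 0.0427) and the MGE maturation difference -0.54 (adjusted p = 0.0157).

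In the L1 group, L1cam, a receptor of growing axons, was lower in MGE cells at E18.5 than in CGE cells at E18.5 (-1.17 ± 0.19, adjusted p = 0.00104) and than in MGE cells at E14.5 (-1.25 ± 0.19, adjusted p = 0.000825). By its brightest probe set, Nrcam was called only in CGE maturation (-0.77 ± 0.23, adjusted p = 0.0493), where the groups overlapped. That call was lost without any single array but CGE E16.5 replicate 1 and CGE E18.5 replicate 3 (values of -0.77 to -0.52, adjusted p up to 0.16). Other Nrcam probe sets gave -1.13 (adjusted p = 0.00624 over all probe sets) and -0.80 (adjusted p = 0.0433) there. In MGE maturation the former of these passed (-0.65, adjusted p = 0.0328) and the latter did not (-0.61, adjusted p = 0.0813). Chl1, the close homologue of L1, depended on the probe set. The brightest gave 0.74 ± 0.22 in the late comparison (adjusted p = 0.0326), a call lost without any MGE E18.5 array, CGE E18.5 replicate 1 or CGE E18.5 replicate 2 (values of 0.50 to 0.77). Another of its probe sets averaged 5.62 in MGE cells at E18.5 and 5.62 at E14.5, against 9.17 in CGE cells at E18.5 and 9.96 at E16.5, which is a late difference of -3.54 and an early one of -4.34. The probe sets of Chl1 therefore differ in sign, and no direction is given for the gene.

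Nectins adhere through the Ig fold and are tied to actin by afadin, and SynCAMs organise synapses. Of 7 measured, 6 were tested. Nectin3, which pairs with Nectin1, averaged 9.76 ± 0.33 in MGE cells at E18.5, 7.96 ± 0.05 in MGE cells at E14.5, 8.47 ± 0.78 in CGE cells at E18.5 and 8.46 ± 0.32 in CGE cells at E16.5 (SD). It was 1.29 ± 0.32 in the late comparison (adjusted p = 0.0121) and 1.80 ± 0.32 in MGE maturation (adjusted p = 0.002), but a second probe set above the filter gave -0.03 and 0.32. The late call was also lost without MGE E18.5 replicate 3 (adjusted p = 0.0537). Nectin1 and Nectin2 were lower in MGE cells in the early comparison, by -0.70 ± 0.17 and -0.64 ± 0.16. Both calls were lost without MGE E14.5 replicate 1, MGE E14.5 replicate 2, CGE E16.5 replicate 1 or CGE E16.5 replicate 3, that of Nectin2 also without MGE E14.5 replicate 3 (values of -0.70 to -0.58 and -0.66 to -0.60).

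Cadm4 and Cadm1 were higher in MGE cells at E18.5, by 0.80 ± 0.14 (adjusted p = 0.00176) and 0.73 ± 0.17 (adjusted p = 0.00907). Cadm3 was lower at E18.5 in MGE cells (-1.13 ± 0.12, adjusted p = 2.94e-05) and in CGE cells (-0.54 ± 0.12, adjusted p = 0.0136). Its late lineage difference of -0.44 ± 0.12 was called (adjusted p = 0.0177) and lost without MGE E18.5 replicate 1 or CGE E18.5 replicate 2 (values of -0.41 to -0.38, adjusted p up to 0.0615). Its 2 other probe sets gave 0.08 and 0.14 in the late comparison, and with the mean of its probe sets the value was -0.07 (adjusted p = 0.698). No lineage direction is given for Cadm3. The CGE maturation difference of Cadm4, -0.56 ± 0.14, was lost without CGE E16.5 replicate 2, CGE E16.5 replicate 3, CGE E18.5 replicate 2 or CGE E18.5 replicate 3 (values of -0.53 to -0.47).

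Dscam had log2 intensities of 9.08, 8.98 and 9.90 in MGE cells at E18.5, 5.57, 5.89 and 5.55 in MGE cells at E14.5, 6.84, 6.22 and 6.63 in CGE cells at E18.5 and 6.81, 6.96 and 6.79 in CGE cells at E16.5. Dscam, an Ig protein through which processes of a neuron avoid one another in the retina, was lower in MGE cells in the early comparison (-1.18 ± 0.23, adjusted p = 0.00789, with both groups below the filter level) and higher in the late one (2.76 ± 0.23, adjusted p = 6.5e-06). MGE maturation was 3.65 ± 0.23 (adjusted p = 7.81e-07) and CGE maturation -0.29 ± 0.23. Its 2 other probe sets above the filter gave 2.00 and 2.68 in the late comparison. Dscaml1 was called in no comparison, at 0.51 in the late one, where another probe set passed at 0.56 (adjusted p = 0.0138 over all probe sets).

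LRR synaptic organisers made up 16 of the genes measured, and 15 of them were tested. In the late comparison 7 were higher in MGE cells, and in MGE maturation 7 were higher at E18.5, where 13% and 11.4% of all genes were. The rest were not called. Slitrk2 had log2 intensities of 9.81, 9.27 and 10.27 in MGE cells at E18.5, 6.11, 6.31 and 6.02 in MGE cells at E14.5, 5.80, 7.85 and 6.87 in CGE cells at E18.5 and 7.32, 6.04 and 6.28 in CGE cells at E16.5. Slitrk2, which binds presynaptic LAR-type phosphatases, was above all other arrays in MGE cells at E18.5, by 2.94 ± 0.46 in the late comparison (adjusted p = 0.000705) and 3.64 ± 0.46 in MGE maturation (adjusted p = 0.000163). Slitrk5, of the same family, was higher in MGE cells in the early (1.29 ± 0.27) and the late comparison (1.39 ± 0.27), and Slitrk4 in the early one (1.41 ± 0.27, adjusted p = 0.00562). Slitrk4 passed the filter through MGE arrays alone, so the filter itself selected for this difference. Slitrk3 was lower in MGE cells in the early comparison (-1.31 ± 0.19, adjusted p = 0.000702) and higher at E18.5 in MGE maturation (0.90 ± 0.19).

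Lrrc4c had log2 intensities of 10.42, 10.36 and 11.05 in MGE cells at E18.5, 7.16, 7.33 and 7.42 in MGE cells at E14.5, 9.34, 8.31 and 7.70 in CGE cells at E18.5 and 9.52, 8.83 and 8.36 in CGE cells at E16.5. Lrrc4c, the ligand of netrin-G1, was lower in MGE cells in the early comparison and higher in the late one. The late difference was 2.16 ± 0.38 (adjusted p = 0.00155) and MGE maturation 3.31 ± 0.38 (adjusted p = 7.6e-05). The early difference of -1.60 ± 0.38 (adjusted p = 0.0193) was lost without MGE E14.5 replicate 1, MGE E14.5 replicate 2 or CGE E16.5 replicate 1 (values of -1.61 to -1.29, adjusted p up to 0.0761). Lrrc4, the ligand of netrin-G2, averaged 10.47 ± 0.15 in MGE cells at E18.5, 10.34 ± 0.38 in MGE cells at E14.5, 8.78 ± 0.26 in CGE cells at E18.5 and 10.08 ± 0.20 in CGE cells at E16.5 (SD). The CGE group at E18.5 alone was low, with a late difference of 1.69 ± 0.20 (adjusted p = 7.21e-05) and a CGE maturation difference of -1.30 ± 0.20 (adjusted p = 0.00364). Lrrtm3 had log2 intensities of 7.53, 7.75 and 8.31 in MGE cells at E18.5, 5.50, 5.65 and 5.66 in MGE cells at E14.5, 6.16, 5.68 and 5.90 in CGE cells at E18.5 and 6.18, 5.91 and 6.46 in CGE cells at E16.5. Lrrtm3, like its relatives a postsynaptic partner of neurexins, was 1.95 ± 0.21 in the late comparison and 2.26 ± 0.21 in MGE maturation. Lrrtm1 (1.56 ± 0.24) and Lrrtm2 (0.81 ± 0.18) were also higher in MGE cells in the late comparison, whereas Lrrtm4 was called nowhere. The other probe sets of Lrrtm2 gave 0.64 and 0.59 late, neither called (adjusted p = 0.0841 and 0.0573 over all probe sets). In MGE maturation Lrrtm2 was 0.89 ± 0.18, and Lrrtm1 was 0.92 ± 0.24, a call lost without any MGE E14.5 array or MGE E18.5 replicate 3 (values of 0.63 to 0.93, adjusted p up to 0.0658). Another Lrrtm1 probe set above the filter gave 2.50 in the late comparison and 1.79 in MGE maturation. The remaining one, which did not pass the filter, ran the other way in both. It averaged 6.16 in MGE cells at E18.5, 7.07 in MGE cells at E14.5 and 6.58 in CGE cells at E18.5.

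Flrt3 had log2 intensities of 9.60, 9.18 and 9.76 in MGE cells at E18.5, 7.32, 7.42 and 7.52 in MGE cells at E14.5, 9.64, 9.83 and 9.32 in CGE cells at E18.5 and 9.07, 8.63 and 8.59 in CGE cells at E16.5. Flrt3, which binds latrophilins and Unc5 receptors, was low on MGE arrays at E14.5 alone, with no overlap with any other group. It was -1.34 ± 0.19 in the early comparison (adjusted p = 0.000591), -0.08 ± 0.19 in the late one and 2.09 ± 0.19 in MGE maturation (adjusted p = 9.5e-06). CGE maturation was 0.83 ± 0.19, a call lost without CGE E16.5 replicate 2, CGE E16.5 replicate 3 or CGE E18.5 replicate 2 (values of 0.72 to 0.76, adjusted p up to 0.0692). Flrt1, of the same family, averaged 9.13 ± 0.11 in MGE cells at E18.5, 8.86 ± 0.16 in MGE cells at E14.5, 9.54 ± 0.48 in CGE cells at E18.5 and 10.48 ± 0.02 in CGE cells at E16.5 (SD). It was highest on CGE arrays at E16.5, with an early difference of -1.62 ± 0.20 (adjusted p = 0.000222) and a CGE maturation difference of -0.94 ± 0.20, and the second call was lost without CGE E18.5 replicate 2 (adjusted p = 0.0503). Flrt2 was called in no comparison, at 0.69 in the early one, where another probe set passed at 0.79 (adjusted p = 0.047 over all probe sets). Of the genes that matched by letters only, Lrrc47 was lower at E18.5 in MGE cells (-0.52 ± 0.12) and the other 5 were called in no comparison.

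Between the lineage comparisons, which share no arrays, Cntn1, Pcdh15, Pcdh19, Pcdh8 and Slitrk5 were called higher in MGE cells in both. Pcdh18 and Pcdh9 were called lower in both. Dscam, Lrrc4c and Ncam2 were called lower in MGE cells early and higher late. The share of all genes with such patterns was not counted. The early calls of Pcdh15 and Lrrc4c and the late call of Pcdh8 were lost without some arrays, and another probe set of Pcdh9 missed the late call. Ncam2 probe sets below the filter were nearly level between the lineages at E18.5. For Dscam the 2 other probe sets above the filter gave -1.22 early (adjusted p = 0.0371 over all probe sets) and -0.64 (adjusted p = 0.053). The test of the change itself, late minus early difference, called 19 members, 18 higher and 1 lower, where 8.62% of all genes were called, 6.75% higher and 1.88% lower. Without the filter 21 of the 82 were higher, where 6.85% of genes were higher and 1.84% lower. The median over the 60 was 0.63 against 0.02 over all genes. The largest values were 4.05 ± 0.35 for Pcdh11x (adjusted p = 2.6e-05), 3.94 ± 0.33 for Dscam (adjusted p = 2.2e-05), 3.76 ± 0.54 for Lrrc4c, 3.48 ± 0.30 for Ncam2 and 3.35 ± 0.65 for Slitrk2. Cadm3 was the member that was lower, at -0.59 ± 0.16 (adjusted p = 0.0466). This call was lost without any array but MGE E14.5 replicate 3 and CGE E18.5 replicate 3 (values of -0.62 to -0.50). The 2 other probe sets of Cadm3 gave 0.30 and 0.25 for the change, and the mean of its probe sets gave -0.01 (adjusted p = 0.975). The tally depends on the probe set. Among members not called, other probe sets passed lower for Cntnap2 (-2.22, adjusted p = 0.0285 over all probe sets), Ncam1 (-1.73, adjusted p = 0.00218) and L1cam (-1.14, adjusted p = 0.0399). Others passed higher for Cdh13 (1.54, adjusted p = 0.0244) and Pcdh9 (1.61, adjusted p = 0.00259). The change equals MGE maturation minus CGE maturation, and MGE cells were followed over a longer interval than CGE cells. Between the maturation comparisons, Flrt3 and Ncam2 were higher at E18.5 in both lineages, Cadm3 and Pcdh19 lower in both, and Cdh4 was higher in MGE cells and lower in CGE cells. Here too the share of all genes was not counted, and the CGE calls of Flrt3, Ncam2 and Cdh4 were lost without some arrays.

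**Figure D4:**
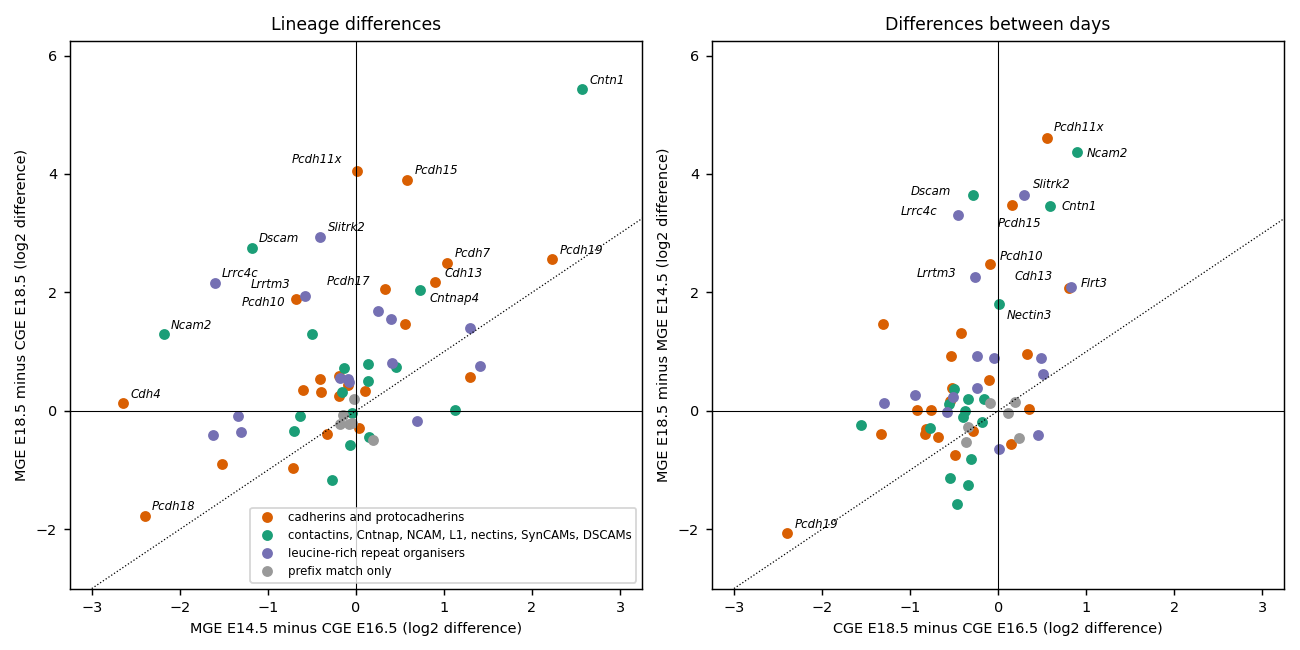
Each point is 1 of the 60 tested genes, coloured by family; the left panel sets the late lineage difference (y axis, log2) against the early one (x axis, log2), and the right panel the difference between days in MGE cells (y axis) against that in CGE cells (x axis). The dotted line marks equal differences, and most genes with large values lie above it, with Cntn1 at 2.57 and 5.43 in the left panel and Pcdh19 near the line in both.

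Genes that act with these molecules were read from lists. Of 22 tested partners outside the cell or across the synapse, 12 were higher and 2 lower in MGE cells in the late comparison (13% and 9.85% of all genes), and 8 were higher and 2 lower at E18.5 in MGE maturation (11.4% and 9.77% of all genes). Tnr, the matrix protein tenascin-R that binds contactin 1, was 3.90 in the late comparison (adjusted p = 5.84e-08) and 3.05 in MGE maturation. Nlgn1, a neuroligin that binds neurexins, was 2.60 in the late comparison, and the netrin receptor Unc5c, of the family that binds FLRTs, was 2.16. Ptprz1, a receptor phosphatase that binds contactin 1, was 3.19 in MGE maturation. In the early comparison 3 of the 22 were higher and 5 lower (4.15% and 5.89% of all genes), led by Tnc (-2.48), the latrophilin Adgrl2 (2.02) and Unc5b (-1.87). In CGE maturation 2 were higher and 5 lower (4.52% and 6.39% of all genes), led by Adgrl3 (-1.32).

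Of 12 tested catenins and other inner partners of cadherins, 4 were higher and 1 lower in MGE cells in the late comparison, against 13% and 9.85% of all genes. Pkp4, a catenin of the p120 family, was 1.37 (adjusted p = 1.67e-06), and Ctnna1, which links cadherins to actin, was -1.17 (adjusted p = 0.00332). Early, Pkp4 was 0.60 and Jup, plakoglobin, was -0.99. Of 8 tested atypical cadherins and calsyntenins, 3 were higher and 1 lower in the late comparison (13% and 9.85% of all genes), with Fat1 at 2.54 (adjusted p = 0.000609) and Fat4 at -0.80. In the early comparison Fat4 (-2.36) and Clstn2 (-1.76) were lower. Of 16 anchors and modifiers of Ig molecules, 4 were higher in the late comparison (13% of all genes) and the rest were not called, with the membrane skeleton protein Epb41l2 at 1.36 (adjusted p = 0.00131) and the scaffold Mpp6 at 1.20.

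The 22 members below the filter were 8 clustered protocadherins, 6 type II cadherins, 3 contactins, Pcdh1, Pcdh12, Pcdh20, Nectin4 and Slitrk6. Fitted without the filter, Cntn4, Cntn6, Cdh20, Nectin4 and Pcdh20 were called higher in MGE cells at E18.5 than in CGE cells at E18.5, at 0.84 to 2.50, and Cdh7 lower (-1.01 ± 0.27, adjusted p = 0.0178). Early, Cdh8 (1.09 ± 0.29) and Slitrk6 (1.24 ± 0.30) were called higher in MGE cells. The table gives no background call, so it does not say which of the dimmest values are signal.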

How the data were processed

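The arrays were labelled as biological replicas, and no source used here says how embryos were divided among them, so p-values measure the spread between arrays, which may be technical in part. RNA went through NuGEN Ovation Pico amplification. The deposited values are log2 intensities that the authors corrected for background and normalised between arrays with Bioconductor. MAS5 stands in the submitters' processing notes, with no version, so the exact normalisation is not settled. Of 27094 probe sets, 34 controls were left out, 22339 had 1 symbol in the platform annotation, 571 several and 4150 none. Values above the 40th percentile on at least 3 arrays were required (16000 probe sets, 8791 genes), and the probe set with the highest mean stood for a gene. Arrays have no read depth; their number limits the precision.

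Group means were modelled and contrasted by limma 3.58.1 (R 4.3.3) with moderated variances (8 residual and 3.60 prior degrees of freedom), two-sided, with Benjamini-Hochberg adjustment over 8791 genes in each of 5 comparisons, and the code was tested on simulated data. The members and gene lists were chosen with earlier results of these data known. Pcdh19 is named always, as are up to 15 called members a direction and comparison, by size. Members whose group means span 4-fold have all 12 arrays printed, and listed partners are named for the 3 largest called differences. Uncalled members complete a family. Alternatives were quantile normalisation, no filter, a 60th percentile filter, other probe set rules, a trend with robust moderation, array weights, a replicate block, MGE E14.5 replicates 1 and 2 as 1 sample, fits of only the groups compared, and each array left out. No columns of values were left unused (0).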

Additional observations from a re-analysis of the deposited data

Results flagged for a closer look

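In 19 members the lineage difference itself changed between the late and the early comparison by limma's test of the difference, where 8.62% of all genes did. The early comparison takes MGE cells of E14.5 and CGE cells of E16.5, so lineage, day and the longer interval in MGE cells cannot be told apart. The late minus early difference (log2) was 4.05 for Pcdh11x, 3.94 for Dscam, 3.76 for Lrrc4c, 3.48 for Ncam2, 3.35 for Slitrk2, 3.32 for Pcdh15 and 2.86 for Cntn1. It was 2.77 for Cdh4, 2.57 for Pcdh10, 2.52 for Lrrtm3, 1.74 for Pcdh17, 1.44 for Lrrc4 and 1.26 for Flrt3. For these 13 genes the call held in the 20 or 21 settings that gave a value. A second Lrrc4 probe set above the filter did not call the change (0.79, adjusted p = 0.24 over all probe sets). Pcdh11x, Dscam, Pcdh15 and Lrrtm3 passed the filter only through MGE cells at E18.5, where they are high, so the filter itself selected for a difference. Without it their adjusted p was 2.6e-05 for Pcdh11x, 2.2e-05 for Dscam, 3.72e-06 for Pcdh15 and 0.000246 for Lrrtm3.

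Weaker calls were 1.79 for Nectin3, 1.32 for Cntnap4, 1.21 for Flrt1, 0.95 for Slitrk3, 0.87 for Cadm1 and -0.59 for Cadm3, the member that went the other way. Each of these was lost without at least 1 array. In the fits that lost the call, the value of Nectin3 ran from 1.60 to 1.84 (adjusted p up to 0.0769), that of Cntnap4 from 1.17 to 1.34 (adjusted p up to 0.0814), that of Slitrk3 from 0.76 to 1.02 (adjusted p up to 0.121), that of Cadm1 from 0.70 to 0.95 (adjusted p up to 0.0986) and that of Cadm3 from -0.62 to -0.50 (adjusted p up to 0.134). Flrt1 was 1.16 without MGE E14.5 replicate 2 (adjusted p = 0.0516). The 2 other probe sets of Cadm3 gave 0.30 and 0.25, opposite in sign, and a second probe set of Nectin3 was 0.06. Over the same contrast all 7 oligodendrocyte precursor markers were called higher, with a median of 4.13, and their part in the adhesion values was not tested.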

How the results depend on the processing

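Of 101 calls over the 60 tested members and 5 comparisons, 71 held in each of the 22 alternative settings that gave a value for them (20 to 22) and 30 were lost in at least 1, while 44 of 199 uncalled results gained a call in at least 1. By comparison, 13 of 17 early calls, 23 of 28 late calls, 19 of 24 MGE maturation calls, 3 of 13 CGE maturation calls and 13 of 19 calls of the change held throughout. Leaving out each array in turn gave 13 to 19 members called in the early comparison, 25 to 30 in the late one, 20 to 24 in MGE maturation, 7 to 13 in CGE maturation and 13 to 19 for the change. CGE maturation gave 5 when only the CGE arrays were fitted. Where the mean of all kept probe sets stood for a gene, Chl1 reversed to -1.35 in the early comparison (adjusted p = 0.00113) and -0.98 in the late one (adjusted p = 0.00466), because its probe sets disagree. The same setting took Cadm3 to -0.07 in the late comparison (adjusted p = 0.698) and to -0.01 for the change (adjusted p = 0.975). Without _x_at, _s_at and _a_at probe sets, Nectin3 was -0.0346 in the late comparison, read by its other probe set. With the replicate block, 17, 30, 23, 14 and 16 members were called in the early, late, MGE maturation, CGE maturation and change comparisons. The numbers do not pair the arrays: same-numbered arrays deviated together with r of -0.17 to 0.28 over 18 pairs, 4 of them over 0.1, and 5 of 12 arrays correlated best with their own number. MGE E14.5 replicates 1 and 2 were the closest pair (r = 0.995), and counted as 1 sample they left 13, 27, 21, 10 and 14 calls. Arrays have no depth, dim signals bound what can be called, and 3 arrays per group limit the precision.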
